A study of Homo sapiens with 34 samples.

Results

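The 9 human genes for histone variants that lie outside the histone cluster of chromosome 6 were followed through chromatin profiles of 3 proteins: H3-3A, H3-3B, H2AZ1, H2AZ2, H2AX, MACROH2A1, MACROH2A2, H1-10 and CENPA. They were named by their biology, not by a measurement, and are 9 of 19970 protein-coding genes on chromosomes 1 to 22 and X. All 9 were found in the annotation, on chromosomes 1, 17, 4, 7, 11, 5, 10, 3 and 2 in the order given. The study used CUT&RUN, in which an antibody holds a nuclease on chromatin so that the DNA beside its target is cut out and sequenced, in U2OS, an established human osteosarcoma line. Antibodies were against SMARCA1, the ATPase of an ISWI chromatin remodeller, OGG1, the glycosylase that excises oxidised guanine, and Orc6, a subunit of the origin recognition complex. All cells had carried an siRNA for 72 h and had been held by a double thymidine block and released for 3 h. SMARCA1 and OGG1 were profiled after a control siRNA, siGl3, and after knockdown of Orc6 by siOrc6, each either non-treated (NT) or given 5 mM H2O2 for 30 min, and Orc6 was profiled in siGl3 cells, NT or H2O2. That makes 10 groups of 2 libraries, 20 lists of called regions in all, from 34 samples in 18 groups, of which the other 14, IgG controls among them, were not analysed here. The series' design text names SMARCA5 where the titles and the antibody labels of these 20 samples name SMARCA1, and the labels were followed. All libraries come from 1 cell line. No label says whether the 2 replicates of a group were separate cultures beyond their batch number, so p-values measure the spread between these libraries. Arms of 4 libraries pool 2 groups that differ in treatment or siRNA. Their SD and p-values therefore hold that difference as well as the spread between replicates.

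Canonical histones are made in S phase from clustered genes whose transcripts end in a stem-loop, and they are laid down behind the replication fork. Variant histones come mostly from solitary genes with introns and polyadenylated transcripts, are made through the cell cycle, and are exchanged into chromatin by dedicated chaperones. H3-3A and H3-3B encode the same protein, H3.3, which HIRA places in transcribed genes. H2A.Z marks nucleosomes beside promoters, H2AX is phosphorylated around DNA breaks, macroH2A carries a large non-histone domain, H1-10 is a linker histone, and CENPA replaces H3 at centromeres. H2AX is known to give a stem-loop transcript as well as a polyadenylated one.

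A gene was called occupied in a library when at least 1 base of a called region lay in the gene or within 1 kb of it, and its covered share is the percentage of that window inside regions. A region's total signal was read only as a percentile within its own list. The lists held 6992 to 132408 regions and occupied 13.5% to 85.8% of all protein-coding genes. The number of reads behind them is unknown, because the lists hold no read counts. The shortest list, of SMARCA1 in siGl3 NT cells, replicate 1, stood apart with 6992 regions. List length differed between the conditions compared, and its part in the results was tested by holding lists to equal length, as given below. The 4 SMARCA1 lists of siOrc6 cells carry a mark of resubmission in their names that no siGl3 list has, so for SMARCA1 the siRNA cannot be told apart from the resubmission.

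The stretches upstream of the annotated starts are shown because the SMARCA1 maxima at H3-3B, H2AX and CENPA lay within 0.793 kb of these starts and because the promoters differ in the boxes they hold. Each is the 250 bases before a start in RefSeq's GRCh38.p14 annotation, written 5′ to 3′ on the gene's strand, with CCAAT or its reverse complement ATTGG and TATAAA or its reverse complement TTTATA in capitals. All 9 members matched the promoter table. H3-3A has 4 annotated starts, of which the most downstream, 0.885 kb into the gene, is shown. MACROH2A1 has 2, of which the one at the 5′ end of the gene is shown. That start had 1 of 5 SMARCA1 maxima within 0.5 kb, and the other, 0.656 kb into the gene, had 3 of 5. The stretch of MACROH2A2 is not shown.
H3-3A: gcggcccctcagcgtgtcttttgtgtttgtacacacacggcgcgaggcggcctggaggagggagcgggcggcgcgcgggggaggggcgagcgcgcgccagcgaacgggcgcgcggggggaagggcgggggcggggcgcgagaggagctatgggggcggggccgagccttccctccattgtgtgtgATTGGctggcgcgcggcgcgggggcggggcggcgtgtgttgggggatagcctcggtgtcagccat
H3-3B: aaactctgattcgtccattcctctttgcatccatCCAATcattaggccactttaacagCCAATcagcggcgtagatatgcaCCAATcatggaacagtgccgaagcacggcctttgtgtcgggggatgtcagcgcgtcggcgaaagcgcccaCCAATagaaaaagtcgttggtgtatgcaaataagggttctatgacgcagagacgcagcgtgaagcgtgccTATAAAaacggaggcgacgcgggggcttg
H2AZ1: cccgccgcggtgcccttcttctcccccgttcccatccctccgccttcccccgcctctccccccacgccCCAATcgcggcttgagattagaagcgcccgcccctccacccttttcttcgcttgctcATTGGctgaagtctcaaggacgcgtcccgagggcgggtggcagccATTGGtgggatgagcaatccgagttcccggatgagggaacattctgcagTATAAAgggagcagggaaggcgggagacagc
H2AZ2: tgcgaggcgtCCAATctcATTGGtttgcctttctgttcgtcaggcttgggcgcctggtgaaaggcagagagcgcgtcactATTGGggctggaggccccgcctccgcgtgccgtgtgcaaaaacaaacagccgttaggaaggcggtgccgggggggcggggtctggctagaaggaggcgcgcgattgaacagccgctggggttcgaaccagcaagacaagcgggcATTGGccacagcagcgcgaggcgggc
H2AX: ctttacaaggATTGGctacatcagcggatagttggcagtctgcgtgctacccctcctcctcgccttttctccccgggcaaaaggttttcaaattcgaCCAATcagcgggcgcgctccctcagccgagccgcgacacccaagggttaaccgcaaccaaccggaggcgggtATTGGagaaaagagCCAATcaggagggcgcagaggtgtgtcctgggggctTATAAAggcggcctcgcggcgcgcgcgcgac
MACROH2A1: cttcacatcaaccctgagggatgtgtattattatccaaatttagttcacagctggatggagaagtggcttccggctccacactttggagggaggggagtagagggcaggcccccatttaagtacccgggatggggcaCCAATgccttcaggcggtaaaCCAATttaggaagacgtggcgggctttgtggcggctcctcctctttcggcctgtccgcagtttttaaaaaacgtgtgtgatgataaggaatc
H1-10: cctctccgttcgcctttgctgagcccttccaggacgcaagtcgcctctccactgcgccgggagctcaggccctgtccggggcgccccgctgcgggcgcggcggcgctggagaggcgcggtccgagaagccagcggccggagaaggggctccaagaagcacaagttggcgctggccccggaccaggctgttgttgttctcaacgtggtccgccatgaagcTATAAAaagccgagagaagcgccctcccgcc
CENPA: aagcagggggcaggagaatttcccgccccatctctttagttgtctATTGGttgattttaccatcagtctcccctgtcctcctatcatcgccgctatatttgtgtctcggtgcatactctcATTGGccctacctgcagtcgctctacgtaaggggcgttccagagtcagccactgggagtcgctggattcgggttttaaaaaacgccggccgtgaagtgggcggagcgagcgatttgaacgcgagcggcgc

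These stretches lie at chr1:226062466-226062715 (plus strand) for H3-3A, chr17:75779780-75780029 (minus) for H3-3B, chr4:99950276-99950525 (minus) for H2AZ1 and chr7:44848088-44848337 (minus) for H2AZ2. Those of H2AX, MACROH2A1 and H1-10 lie at chr11:119095466-119095715, chr5:135399888-135400137 and chr3:129316287-129316536 (all minus), and that of CENPA at chr2:26785806-26786055 (plus). CCAAT on either strand occurred 4 times before H3-3B, 4 times before H2AX, 4 times before H2AZ2, 3 times before H2AZ1 and 2 times before CENPA. In the shown windows of H3-3A and MACROH2A1 it occurred 1 and 2 times. It was not found in the windows of H1-10 and MACROH2A2. The third start of H3-3A and the MACROH2A1 start 0.656 kb into the gene, both not shown, held none either. Of 35116 annotated promoters, 32.0% held it at least 1 time. TATAAA was found 1 time each before H3-3B, H2AZ1, H2AX and H1-10, against 10.7% of promoters. The GC box GGGCGG, present in 42.6% of promoters, occurred 6 times in the shown H3-3A window. CENPA held 1 match each to TTTGAA (13.3% of promoters) and TTCCCGC (5.52%), letters of elements known from genes expressed in particular phases of the cell cycle. H2AX held 1 TTTGAA as well, the second start of H3-3A held 1 TTCCCGC, and H1-10 held 1 match to TTGGCGC (2.56%). Of the other motifs searched, TGACG was in 21.2% and GGGG in 87.1% of promoters. Both strands were searched. ATTGG and TTGGCGC can share letters, and a match is a description of the letters, not of binding.

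Occupancy of the variant genes was frequent but uneven. Of 180 pairs of a member and a list, 165 were occupied. H3-3B was occupied in 20 of 20 lists, as were 8.79% of all protein-coding genes. MACROH2A2, H1-10 and CENPA were occupied in 19 lists each, H3-3A, H2AZ2 and H2AX in 18, and H2AZ1 and MACROH2A1 in 17. Each member was occupied in at least 16 lists, as were 42.6% of all genes. The 15 gaps fell in 4 lists. SMARCA1 siGl3 NT replicate 1 held H3-3B alone, and replicate 2 held H3-3B, H2AZ2, MACROH2A2, H1-10 and CENPA. SMARCA1 siGl3 H2O2 replicate 2 lacked H2AZ2 and MACROH2A1, and OGG1 siGl3 NT replicate 2 lacked H2AZ1. No list of siOrc6 cells and no Orc6 list had a gap.

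**Figure D1:**
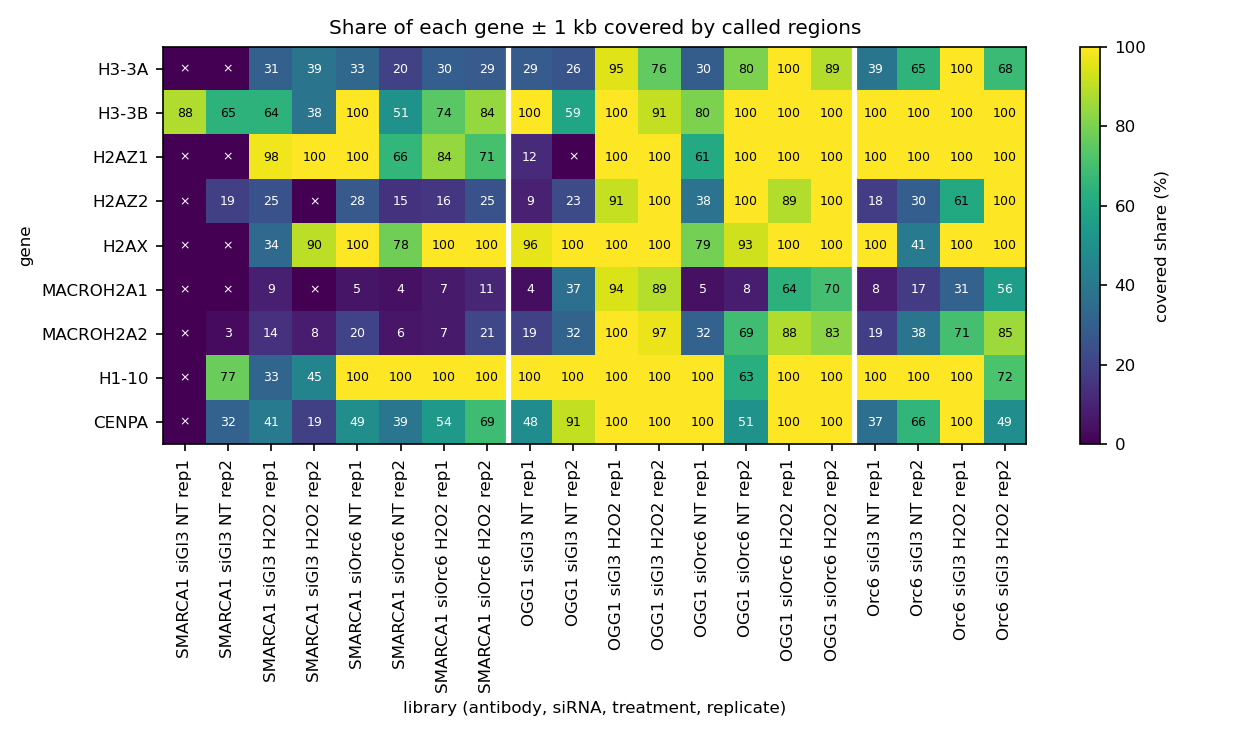
Covered share of each member's window (gene with 1 kb on either side, in percent, printed in each cell and coloured from 0 to 100) in the 20 libraries, with a cross where no region overlapped. White lines separate SMARCA1, OGG1 and Orc6. The crosses stand in 4 columns, 12 of the 15 in the non-treated SMARCA1 libraries of siGl3 cells, and the OGG1 H2O2 columns hold values from 64.4% upward.

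In 154 of the 165 occupied pairs (93.3%) the gene start lay inside a region, against 77.4% of such pairs over the 15812 genes with a strand in the promoter table. In 59 of the 165 the whole window was covered, which fixes this. Among the other 106 pairs the share was 89.6%, against 75.3% over all genes. Gene length was not matched here, and in a short window a region reaches the start more easily. Only 2 of 9 members are longer than the median protein-coding gene of 24.2 kb. The strongest region is the one of highest total signal. Its maximum lay within 0.5 kb of the nearest annotated start of any gene in 109 pairs (66.1%). That nearest start was the member's own in 87 pairs (52.7%). Maxima within 0.5 kb of an own start but nearer to another gene's start are not among the 87. At H2AZ1, 6 such maxima lay nearest to the start of the divergent transcript H2AZ1-DT. An own start was the nearest and that close in 41 of 58 SMARCA1 (70.7%), 20 of 36 Orc6 (55.6%) and 26 of 71 OGG1 maxima (36.6%). Another gene's start was the nearest and that close in 6 SMARCA1, 4 Orc6 and 12 OGG1 maxima. Some of these also lay within 0.5 kb of an own start. Over all regions of a list, 6.85% to 47.3% of maxima in SMARCA1 lists, 5.46% to 35.4% in OGG1 lists and 10.8% to 18.5% in Orc6 lists lay that close to an annotated start. Member regions had to touch a gene and these regions did not, so the shares describe different populations. In 74 of 165 pairs (44.8%) the strongest region also touched another protein-coding gene, so signal there is not the member's alone.

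H3-3B spans 3.35 kb on the minus strand at chr17:75776434-75779779. Its covered share in SMARCA1 lists was 88.2% and 64.6% in siGl3 NT cells, 64.5% and 38.3% after H2O2, 100% and 50.8% in siOrc6 NT cells and 74.4% and 84.4% in siOrc6 H2O2 cells. The siGl3 H2O2 libraries were the lowest: neither reached a siGl3 NT library (64.46% against 64.55% at the closest) or a siOrc6 H2O2 library, while the siOrc6 NT pair spanned all the others save the lowest. In OGG1 lists it was 100% and 59.2% in siGl3 NT, 100% and 90.8% in siGl3 H2O2, 80.2% and 100% in siOrc6 NT and 100% in both siOrc6 H2O2 libraries, and in the 4 Orc6 lists it was 100%. Its strongest region stood between the 91.1 and the 99.97 percentile of total signal in every list, the narrowest range of the 9 members. All 8 SMARCA1 maxima lay between -0.477 and 0.225 kb from the start, where a negative distance is upstream. OGG1 maxima were elsewhere in 7 of 8 lists, more than 1 kb from the start. The OGG1 regions were broad, from 14.1 to 214.8 kb, against 3.29 to 15.9 kb for SMARCA1 and 12.1 to 32.8 kb for Orc6. They reached another protein-coding gene in 8 of 8 lists, UNK lying 5.03 kb and GALK1 11.2 kb away.

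H3-3A, the other H3.3 gene, spans 10.2 kb on the plus strand at chr1:226061831-226072019, with its nearest neighbours SDE2 62.5 kb and ACBD3 72.7 kb away. No strongest region there touched another protein-coding gene, although the maximum lay within 0.5 kb of the start of the non-coding H3-3A-DT in 1 SMARCA1 list and of LINC01703 in 1 OGG1 list. In SMARCA1 lists it had no region in both siGl3 NT libraries, 30.8% and 38.5% cover after H2O2, 33.4% and 19.6% in siOrc6 NT and 29.7% and 28.7% in siOrc6 H2O2 libraries. The 6 occupied SMARCA1 libraries thus lay in a band of 19.6% to 38.5%, with regions of 2.38 to 4.70 kb. OGG1 covered 29.1% and 25.9% in siGl3 NT, 95.0% and 75.8% in siGl3 H2O2, 29.5% and 80.2% in siOrc6 NT and 100% and 88.7% in siOrc6 H2O2 libraries. One NT library, siOrc6 replicate 2, was above 1 H2O2 library, so the OGG1 arms overlapped. Orc6 covered 38.9% and 65.0% in NT and 100% and 68.2% in H2O2 libraries. The strongest H3-3A region stood at the 45.2 to 98.8 percentile, below H3-3B in each of the 18 lists that held both.

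H2AZ1 spans 2.19 kb on the minus strand at chr4:99948088-99950275, with DNAJB14 1.47 kb beyond its 3′ end. In SMARCA1 lists it had no region in siGl3 NT libraries, 97.9% and 100% cover in siGl3 H2O2, 100% and 66.2% in siOrc6 NT, and 84.2% and 70.8% in siOrc6 H2O2 libraries. The region of highest total signal did not peak at the same place in each library. In the 2 siGl3 H2O2 libraries the maximum lay at -0.376 and -0.048 kb from the H2AZ1 start, the latter inside the stretch shown above. In all 4 siOrc6 libraries it lay 3.77 to 3.98 kb downstream of that start, within 0.320 kb of the annotated start of DNAJB14, which lies 3.66 kb downstream. In 2 of these 4 libraries a second region, over the H2AZ1 start, had less total signal but the higher maximum: its percentile was 88.7 against 71.6 in NT replicate 2 and 98.2 against 97.3 in H2O2 replicate 2. OGG1 maxima lay within 0.5 kb of the DNAJB14 start in 2 of 7 occupied lists and of the start of the divergent transcript H2AZ1-DT, at -0.219 kb from the H2AZ1 start, in 4. OGG1 covered 12.3% and 0% in siGl3 NT and 61.3% and 100% in siOrc6 NT libraries, and 100% in all 4 H2O2 libraries. Orc6 covered 100% in its 4 lists, with maxima between -0.418 and 0.937 kb from the start.

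H2AZ2 spans 21.2 kb on the minus strand at chr7:44826889-44848126. SMARCA1 covered 0% and 19.1% in siGl3 NT, 25.2% and 0% in siGl3 H2O2, 28.1% and 14.6% in siOrc6 NT and 15.7% and 25.0% in siOrc6 H2O2 libraries. Where occupied, its 6 SMARCA1 maxima lay 0.198 to 0.851 kb downstream of the gene start, inside the gene. Its highest maximum ranked at the 92.7 to 99.8 percentile of maximum signal there. OGG1 covered 9.27% and 23.0% in siGl3 NT, 91.2% and 100% in siGl3 H2O2, 38.0% and 100% in siOrc6 NT and 88.6% and 100% in siOrc6 H2O2 libraries. The OGG1 regions were 8.60 to 155.6 kb wide. Orc6 covered 18.3% and 29.9% in NT and 60.7% and 100% in H2O2 libraries, whose values did not overlap.

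H2AX spans 1.59 kb on the minus strand at chr11:119093874-119095465, and overlaps DPAGT1 in the annotation. Its strongest region touched another protein-coding gene in 18 of 18 occupied lists, so no list assigns it to H2AX alone. SMARCA1 covered 0% in both siGl3 NT, 34.1% and 90.1% in siGl3 H2O2, 100% and 78.2% in siOrc6 NT and 100% in both siOrc6 H2O2 libraries. The 6 SMARCA1 maxima lay between -0.144 and 0.286 kb from the H2AX start. OGG1 covered 96.3% and 100%, 100% and 100%, 79.0% and 92.8%, and 100% and 100% in the same order. Its OGG1 maxima were within 1 kb of the start in 3 of 8 lists. Orc6 covered 100% and 41.3% in NT and 100% in both H2O2 libraries, all 4 maxima between -0.200 and 0.285 kb from the start.

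**Figure D2:**
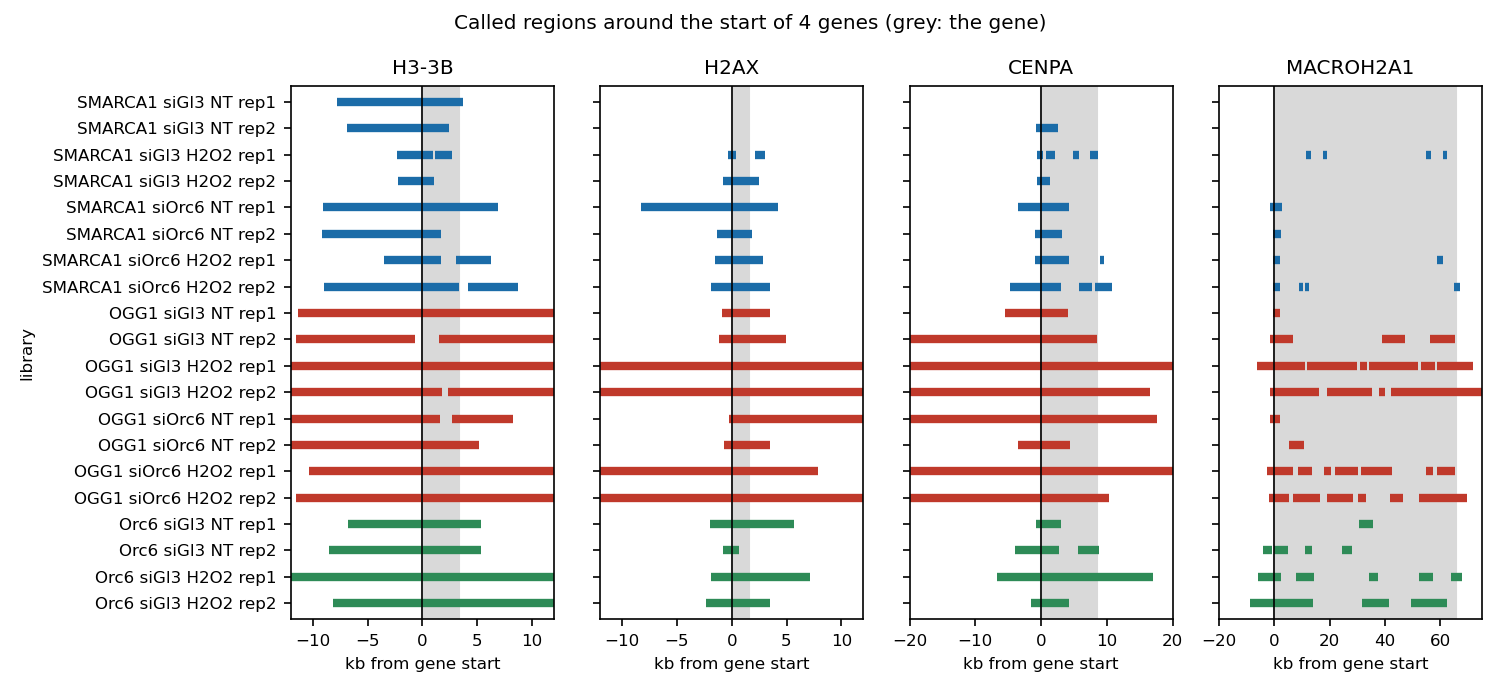
Called regions (bars, 1 row per library; blue SMARCA1, red OGG1, green Orc6) against the distance in kb from the start of H3-3B, H2AX, CENPA and MACROH2A1, with the gene in grey and bars trimmed at the panel edge. SMARCA1 bars at H3-3B, H2AX and CENPA cluster on the start, OGG1 bars of H2O2 libraries run past the panel edges, and MACROH2A1 carries 4 to 7 separate OGG1 regions in H2O2 libraries.

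The macroH2A genes are the longest of the 9. MACROH2A1 spans 65.5 kb on the minus strand at chr5:135334381-135399887, and MACROH2A2 59.4 kb on the plus strand at chr10:70052846-70112282, where AIFM2 overlaps it. SMARCA1 regions were short at MACROH2A1: cover was 0% and 0% in siGl3 NT, 8.81% and 0% in siGl3 H2O2, 5.47% and 4.33% in siOrc6 NT and 7.17% and 10.8% in siOrc6 H2O2 libraries. Orc6 covered 7.68% and 17.2% of MACROH2A1 in NT and 31.4% and 56.2% in H2O2 libraries, which did not overlap. OGG1 covered 3.54% and 36.7% in siGl3 NT, 94.2% and 88.9% in siGl3 H2O2, 4.53% and 7.79% in siOrc6 NT and 64.4% and 69.97% in siOrc6 H2O2 libraries. Every OGG1 H2O2 library was above every OGG1 NT library. MACROH2A1 was the lowest member by total signal in 10 of the 19 lists with several members, and its percentile ran from 1.72 to 97.7.

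At MACROH2A2, SMARCA1 covered 0% and 2.78% in siGl3 NT, 14.3% and 7.77% in siGl3 H2O2, 20.3% and 5.86% in siOrc6 NT and 7.12% and 21.3% in siOrc6 H2O2 libraries. OGG1 covered 19.5% and 31.7% in siGl3 NT, 100% and 96.9% in siGl3 H2O2, 31.6% and 69.3% in siOrc6 NT and 88.3% and 82.6% in siOrc6 H2O2 libraries, again with no overlap between treatments. Orc6 covered 18.5% and 38.4% in NT and 70.5% and 85.4% in H2O2 libraries. The start of MACROH2A2 lay in a region in 19 of 19 occupied lists. Its maxima lay within 1 kb of the start in 6 of 7 SMARCA1 and 4 of 4 Orc6 lists. Of 8 OGG1 lists 3 did, and others peaked downstream, near the starts of AIFM2 and TYSND1 in 1 list each.

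H1-10, the linker histone H1X, spans 1.52 kb on the minus strand at chr3:129314771-129316286, 8.58 kb from HMCES. SMARCA1 covered 0% and 77.3% in siGl3 NT, 32.7% and 45.1% in siGl3 H2O2, and 100% in all 4 siOrc6 libraries. The siOrc6 and siGl3 libraries did not overlap. OGG1 covered 100% in 7 of 8 libraries and 63.1% in siOrc6 NT replicate 2, and Orc6 covered 100% in 3 of 4 and 71.6% in H2O2 replicate 2. H1-10 carried no more than 1 region in any list, 1.15 to 34.9 kb wide.

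CENPA spans 8.53 kb on the plus strand at chr2:26786056-26794589, 4.82 kb from SLC35F6. SMARCA1 covered 0% and 31.6% in siGl3 NT, 41.0% and 19.01% in siGl3 H2O2, 49.3% and 39.3% in siOrc6 NT and 53.9% and 69.0% in siOrc6 H2O2 libraries. All 7 SMARCA1 maxima and all 4 Orc6 maxima lay within 1 kb of the CENPA start, the Orc6 ones between -0.0825 and 0.236 kb. OGG1 covered 48.5% and 90.8% in siGl3 NT and 100% and 51.2% in siOrc6 NT libraries, and 100% in the 4 H2O2 libraries. In those 4 the region was 104.5 to 168.0 kb wide, and stood at the 99.8 to 99.95 percentile. In 7 of 8 OGG1 lists it reached another gene. Orc6 covered 36.5% and 65.7% in NT and 100% and 49.1% in H2O2 libraries, which overlapped.

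By median percentile of total signal over the lists that held them, the members ran from H3-3B (98.9) through H2AZ2 (97.8), MACROH2A2 (94.3), CENPA (91.2), H2AZ1 (90.7), H3-3A (89.4), H1-10 (85.9) and H2AX (82.4) to MACROH2A1 (68.2). Total signal grows with the width of a region. By the percentile of maximum signal, which is taken at 1 place and is closer to a level per length, the order was H3-3B (99.0), H2AZ2 (98.6), CENPA (97.0), H2AZ1 (92.7), H3-3A (89.8), MACROH2A2 (89.2), H2AX (82.0), H1-10 (80.5) and MACROH2A1 (67.9). The ranges of neighbours in either order overlapped. Members share the same lists, and whether neighbours differed within lists was not tested. H3-3B had the highest maximum in 12 and H2AZ2 in 7 of 19 lists with several members, and MACROH2A1 had the lowest in 12.

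**Figure D3:**
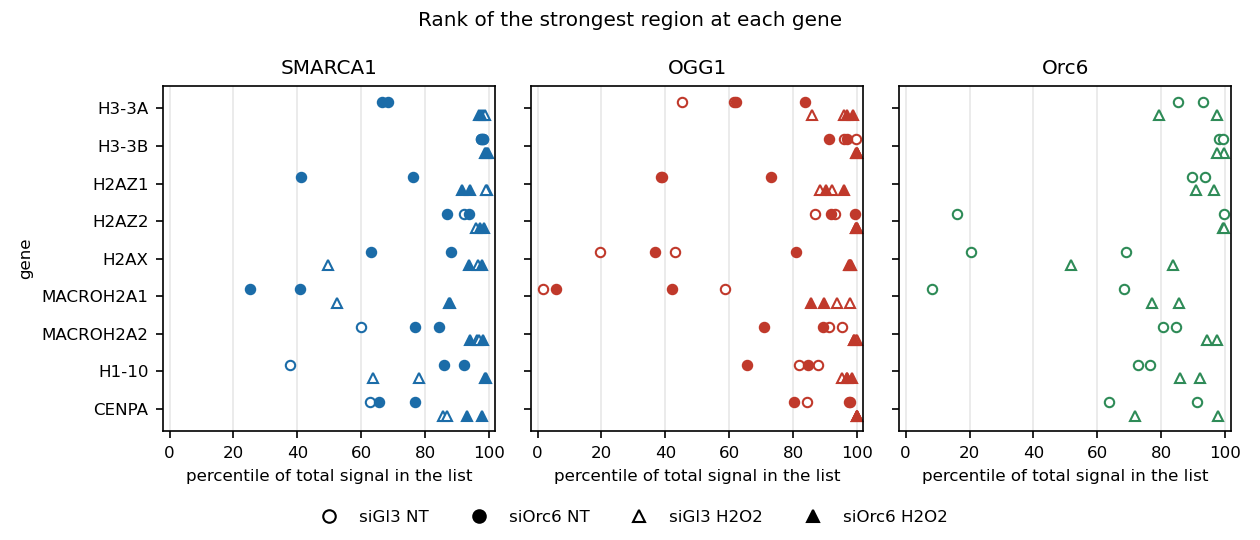
Percentile of total signal of the strongest region at each member within its own list (x axis, 0 to 100), by gene and antibody, with circles for non-treated and triangles for H2O2 libraries, open for siGl3 and filled for siOrc6. H3-3B stays at or above 91.1 in every list, while MACROH2A1 in non-treated OGG1 libraries goes down to 1.72. Lists differ in length, so no change is read from these ranks.

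The first question was whether the genes were occupied differently after H2O2. For SMARCA1, 7 of 9 members were occupied in more H2O2 than NT libraries, as were 68.7% of all genes, and none in fewer. H3-3A, H2AZ1 and H2AX were occupied in 4 of 4 H2O2 and 2 of 4 NT libraries (two-sided Fisher's exact test, p = 0.429 each). All of that difference lay in siGl3 cells, since these 3 were occupied in every siOrc6 library. Without the sparse siGl3 NT replicate 1 the difference in occupied share of these 3 was 33.3 in place of 50.0 percentage points. It was 33.3 without replicate 2 of that group as well, and 66.7 without either siOrc6 NT library. No member was occupied in all H2O2 and no NT libraries, a pattern that 5.02% of genes had. With lists held to 31.8 covered Mb, H3-3A and H2AZ1 were occupied in 4 of 4 H2O2 and 0 of 4 NT libraries, a difference of 100 points (Fisher's exact test, p = 0.0286, adjusted p = 0.136), and with lists of 6992 regions the difference was again 50.0 points. Holding covered bases keeps fewer regions where the strongest ones are broad. Median widths in full SMARCA1 lists were 1.27 to 2.08 kb with H2O2 and 3.23 to 6.57 kb in NT cells. The mean covered share was higher with H2O2 for 8 of 9 members, against 85.7% of genes, with a median difference of 5.39 points over the members and 3.21 over all genes tested. No member's arms separated, while 8.39% of genes were covered more in every H2O2 than in every NT library. H3-3B, H2AZ1, H2AX and H1-10 each had an NT library at 100%, so no H2O2 library could lie above it.

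OGG1 after H2O2 covered more of each member than in NT cells on average, by 7.98 points for H2AX to 66.2 for MACROH2A1. All 9 members had the higher mean, as did 96.7% of genes, with a median difference of 48.7 points over the members against 28.5 over all genes. MACROH2A1 was covered 79.4% ± 14.4 with H2O2 and 13.1% ± 15.8 without (mean ± SD, n = 4 each), and MACROH2A2 91.9% ± 7.97 and 38.0% ± 21.6. For each, the exact permutation p was 0.0286, the smallest that 4 against 4 libraries allow, and the Benjamini-Hochberg adjusted p over 17764 genes was 0.0637. These were the 2 of 9 members whose arms did not overlap, against 44.9% of genes. H3-3B, H2AZ1, H2AZ2, H2AX, H1-10 and CENPA each had an NT library at 100%, so no H2O2 library could lie above it. H3-3A differed by 48.7 points (89.9% ± 10.5 against 41.2% ± 26.1, n = 4 each, exact permutation p = 0.0571, adjusted p = 0.102). Members fully covered numbered 5 or 6 of 9 in each OGG1 H2O2 library and 2 or 3 in each NT library, while 9.78% to 17.1% and 3.37% to 10.6% of all genes were. Short genes are covered in full more easily, and only 2 of 9 members are longer than the median protein-coding gene of 24.2 kb.

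The size of these OGG1 differences moved with the width and number of regions. H2O2 lists held 73301 to 132408 regions over 557.5 to 825.4 Mb, and NT lists 17813 to 33435 over 165.7 to 287.7 Mb. With each list held to its 17813 regions of highest total signal the difference was 48.5 points at MACROH2A1 and 50.3 at MACROH2A2. With lists held to 165.7 covered Mb it was 8.17 and 23.5 points. Read only 1 kb on either side of both gene ends, the MACROH2A2 difference was 3.30 points, that of MACROH2A1 54.9 and that of H3-3A 34.7. Among regions of at most 10 kb the MACROH2A2 difference was -3.12 points, that of H3-3A -2.17 and that of MACROH2A1 14.7. All 9 members were already occupied in at least 3 of 4 OGG1 NT libraries, so the members could not show the all-or-none pattern that 7.84% of genes had.

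**Figure D4:**
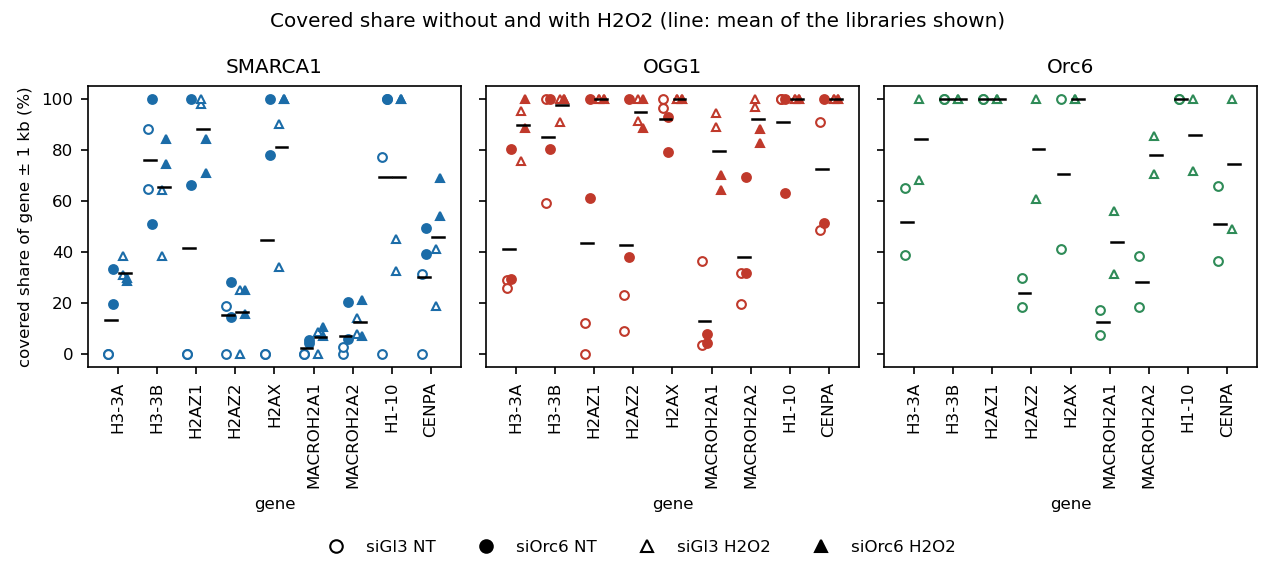
Covered share of each member's window (percent) without H2O2 (circles) and with it (triangles) for SMARCA1, OGG1 and Orc6, 1 point per library, open for siGl3 and filled for siOrc6, with a line at the mean of the libraries shown (4 per arm, 2 for Orc6). Among the OGG1 points the triangles of MACROH2A1 (64.4% to 94.2%) and MACROH2A2 (82.6% to 100%) stand above all circles (3.54% to 36.7% and 19.5% to 69.3%).

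Orc6 occupied all 9 members in both NT and both H2O2 libraries, so occupancy could not differ. Covered share did not overlap for H3-3A, H2AZ2, MACROH2A1 and MACROH2A2, 4 of 9 members against 40.2% of genes, each higher with H2O2, by 31.3 points (MACROH2A1) to 56.3 points (H2AZ2). The mean was higher for 6 of 9 members against 81.7% of genes. H3-3B and H2AZ1 were at 100% in all 4 libraries, and H1-10 was 85.8% with H2O2 and 100% without. H2AX was at 100% in 1 NT library. At these members no H2O2 library could lie above every NT library. With 2 against 2 libraries the exact permutation p cannot go below 0.333, and the all-or-none pattern was found at 1.95% of genes.

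The second question was what followed Orc6 knockdown. In SMARCA1 lists, 8 of 9 members were occupied in more siOrc6 than siGl3 libraries, against 57.3% of genes, and the ninth, H3-3B, in all 8. MACROH2A1 was occupied in 4 of 4 siOrc6 and 1 of 4 siGl3 libraries (two-sided Fisher's exact test, p = 0.143). No member was in all siOrc6 and no siGl3 libraries, as 2.26% of genes were. The mean covered share was higher with siOrc6 for 9 of 9 members against 78.2% of genes, with a median difference of 13.5 points over the members and 4.05 over all genes. H1-10 was covered 100% in 4 siOrc6 libraries and 38.8% ± 32.0 in 4 siGl3 libraries, the 1 of 9 members without overlap, against 21.3% of genes (exact permutation p = 0.0286, adjusted p = 0.129 over 16669 genes). H2AX (94.5% ± 10.9 against 31.1% ± 42.5) and CENPA (52.9% ± 12.3 against 22.9% ± 17.7) followed, each with n = 4, an exact permutation p of 0.0571 and an adjusted p of 0.214. Without siGl3 NT replicate 1 the 3 differences were 48.3, 53.1 and 22.3 points, in place of 61.2, 63.5 and 30.0. The resubmission mark follows the siRNA in these 8 lists.

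For OGG1, 9 members were occupied in every siOrc6 list and 8 or 9 in siGl3 lists. Covered share was higher with siOrc6 for 6 of 9 members, against 34.3% of genes, with a median difference of 5.92 points over the members and -2.89 over all genes, and no member's arms separated. H2AZ1 differed most, 90.3% ± 19.4 against 53.1% ± 54.4 (n = 4 each, exact permutation p = 0.429, adjusted p = 1), but was higher in only 2 of 4 same-numbered pairs. H3-3A was higher in 4 of 4 pairs, 74.6% ± 31.1 against 56.4% ± 34.4 (adjusted p = 1 by the exact permutation test). MACROH2A1 was lower, 36.7% ± 35.3 against 55.8% ± 43.5 (exact permutation p = 0.571). Each arm here pools NT and H2O2 libraries, so SD and p hold the treatment difference too. In H2O2 cells MACROH2A1 was 64.4% and 69.97% with siOrc6, below 94.2% and 88.9% with siGl3. In NT cells it was 4.53% and 7.79% against 3.54% and 36.7%, which overlapped. Neither was tested within a treatment. Genome-wide, 0% of genes were in all libraries of 1 siRNA and none of the other, and 0.00563% were covered more in every siOrc6 than in every siGl3 library.

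The third question was how the 3 proteins compared at these genes in siGl3 cells, where all were profiled. These comparisons share libraries with each other. OGG1 occupied 8 of 9 members in more libraries than SMARCA1, as it did 68% of genes, and Orc6 likewise 8 of 9 against 56.4%. The direction turned when lists were held to 31.8 covered Mb: OGG1 minus SMARCA1 was then -50 points of occupied share at H3-3A and -25 at H2AZ2 and H2AX, and Orc6 minus SMARCA1 was -50 at H3-3A and H2AZ1 and -25 at H2AX. Orc6 minus SMARCA1 was -25 at H2AX with lists of equal length too, and at H2AZ2 with regions of at most 10 kb. Holding covered bases keeps fewer regions where the strongest ones are broad. Median widths in full siGl3 lists were 1.27 to 3.79 kb for SMARCA1, 3.35 to 7.49 kb for OGG1 and 3.49 to 7.17 kb for Orc6. With lists of 6992 regions H2AZ1 was in 0 of 4 OGG1 and 2 of 4 SMARCA1 lists, and in full lists in 3 and 2. Those regions are taken by total signal, which grows with width. MACROH2A1 was in 4 of 4 OGG1, 4 of 4 Orc6 and 1 of 4 SMARCA1 libraries, the widest difference (two-sided Fisher's exact test against SMARCA1, p = 0.143 each). No member was all-or-none, a pattern of 5.97% of genes for OGG1 against SMARCA1, 0.716% for Orc6 against SMARCA1 and 2.5% for OGG1 against Orc6. OGG1 covered more than SMARCA1 on average at 9 of 9 members (99% of genes), with no overlap at CENPA, H1-10, H2AX and MACROH2A2, 4 of 9 against 39.8% of genes. Orc6 covered more than SMARCA1 at 9 of 9 members (95.2% of genes), with no overlap at H3-3A, H3-3B and MACROH2A2, 3 of 9 against 32.8%. Orc6 against OGG1 gave a higher Orc6 mean at H3-3A, H3-3B and H2AZ1, 3 of 9 against 19.9% of genes, and no member was lower in all Orc6 than in all OGG1 libraries, as 18.3% of genes were.

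After Benjamini-Hochberg adjustment Fisher's exact test on occupancy called 0 of 9 members in each of the 8 comparisons, and 0 at an unadjusted p under 0.05. It called 88.6% of the 1767 genes testable for OGG1 with H2O2, and 0% in the other 7 comparisons. The exact permutation test on covered share called 0 of 9 members for SMARCA1 and OGG1, by treatment or by siRNA, and 0% of all genes. At an unadjusted p under 0.05 it gave 2 members for OGG1 with H2O2, where 7972 of 17764 genes reached it, and 1 for SMARCA1 with siOrc6, where 3699 of 16669 did. With 4 against 4 libraries neither exact test can go below p = 0.0286.

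To set the antibodies side by side at 1 list length, each list was cut to its 6992 regions of highest total signal, the length of the shortest. H3-3B remained occupied in 20 of 20 lists, as many as 2.42% of genes. MACROH2A2 was in 18, H2AZ2 in 17, CENPA in 16, H1-10 in 15 and H3-3A in 14 of 20. The shares of genes in at least as many lists were 6.38%, 8.36%, 10.5%, 12.7% and 15.2% in the same order. H2AZ1 was in 6 of 8 SMARCA1, 4 of 4 Orc6 and 1 of 8 OGG1 lists, 11 in all, and 23.0% of genes were in at least as many. The cut ranks regions by total signal, which grows with width. In full lists H2AZ1 was in 7 of 8 OGG1 lists. Its median percentile of maximum signal there was 92.7 for OGG1 and 91.1 for SMARCA1. H2AX was in 5 of 8 SMARCA1, 5 of 8 OGG1 and 0 of 4 Orc6 lists, and MACROH2A1 in 3 of 20. The lists of siOrc6 SMARCA1 libraries held 8 or 9 members and those of siGl3 SMARCA1 libraries 1 to 6, while they occupied 30.2% to 34.0% and 13.5% to 21.3% of all genes. These counts were chosen as a description after other values had been seen and carry no test.

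**Figure D5:**
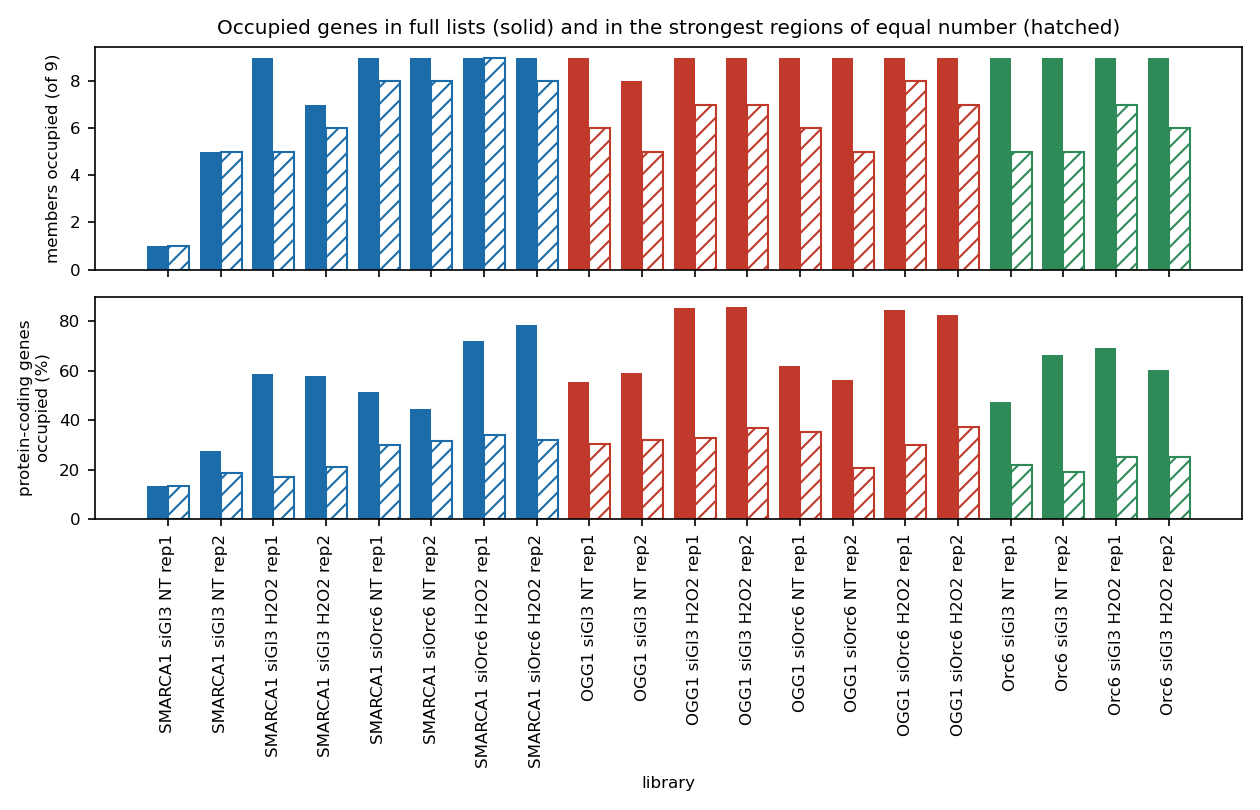
Members occupied (top, of 9) and protein-coding genes occupied (bottom, percent) in each library, for full lists (solid bars) and for the 6992 strongest regions of each list (hatched bars), coloured by antibody. In full lists 16 of 20 libraries hold all 9 members, and at equal length the SMARCA1 siOrc6 libraries hold 8 or 9 and the SMARCA1 siGl3 libraries 1 to 6.

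Genes for the proteins that place or remove variants were counted in the same lists. Of 35 listed deposition and chaperone genes 34 were in the annotation, and between 7 and 33 were occupied per list, with a median of 27. Single genes ranged from 0 to 20 lists, with DAXX in 0, ACTR6 and CHAF1B in 7, ATRX in 9 and UBN2 and DEK in 11. HIRA, which deposits H3.3, SRCAP, which exchanges H2A.Z, and APLF, NAP1L1 and NASP were occupied in 20 of 20 lists, 5 of 34 against 8.79% of genes. For OGG1, ACTR6, ATRX and DEK were occupied in 4 of 4 H2O2 and 0 of 4 NT libraries (two-sided Fisher's exact test, p = 0.0286, adjusted p = 0.0323 over the 1767 testable genes), 3 of 34 against 7.84% of genes. With lists of equal length or equal covered bases, under the replicate block, or without any 1 H2O2 library, 0 genes of any kind were called in this comparison, so these calls were lost. ATRX is a remodeller that places H3.3 in repeats, and ACTR6 is a subunit of the SRCAP complex. RUVBL1, an ATPase of H2A.Z-exchanging complexes, was likewise in 4 of 4 H2O2 and 0 of 4 NT libraries for SMARCA1 (adjusted p = 0.0586). HJURP, the CENPA chaperone, was in 17 of 20 lists. DAXX, HJURP, H2AJ, CHAF1B, UBN2 and the 5 genes found in all lists were picked out after their values were seen. Of 9 other variant genes, H2AJ was in 11 lists, and H1-8, an oocyte linker histone, was in 4 of 4 OGG1 and 0 of 4 SMARCA1 siGl3 libraries (adjusted p = 0.0652).

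The 53 replication-dependent histone genes of chromosome 6 were counted for comparison. Between 2 and 16 of the 53 were occupied in an OGG1 NT library and 38 to 41 in an OGG1 H2O2 library, against 8 or 9 and 9 of the 9 variant genes. Of these 53, 18 were occupied in all 4 H2O2 and no NT libraries, among them H1-1, H1-2, H1-4, H2AC14, H2AC4, H2AC6, H2AC7, H2BC14, H2BC4 and H2BC7 (two-sided Fisher's exact test, adjusted p = 0.0323 each), against 7.84% of all genes. The 9 variant genes were each occupied in OGG1 NT libraries already, so they could not show this pattern. These 18 calls were lost under the same 4 alternatives, which called 0 genes. The difference between the 2 sets was not tested. The clustered genes lie close together and share regions, so their count is not 18 independent events.

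Genes on other chromosomes whose percentile of total signal ran most like a member's over the 20 lists (taken as 0 where no region was called) were found by Spearman's rho, a description over lists that differ in length and share conditions. ARF4 (rho = 0.96), MAT2B (0.96) and ZBTB37 (0.96) were most like H2AZ1, and PDE12 (0.96), DNAJB14 (0.94) and HMBOX1 (0.94) most like H3-3A. For CENPA they were IL6R (0.96), CNFN (0.95) and TTLL6 (0.95), and for MACROH2A1 LINS1 (0.95), ANKFY1 (0.95) and ELP2 (0.94). H2AX was most like ELOVL1 (0.92), H2AZ2 like PSMB4 (0.92), MACROH2A2 like DAZAP2 (0.94) and H1-10 like LOC128092249 (0.95). Among members themselves, H3-3A and H2AZ1 ran most alike (rho = 0.94), and H2AZ1 and H1-10 least (rho = 0.30). In covered share H2AZ2 and MACROH2A2 ran most alike (Pearson r = 0.96, n = 20 lists).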

How the data were processed

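CUT&RUN was done on U2OS cells fixed briefly in formaldehyde, per the labels' protocols. Build hg38 and the tools SEACR 1.1, Bowtie2, DiffBind, DESeq2, deepTools, SAMtools and bedtools stand in the submitters' processing notes, without roles. The deposited lists hold regions of 1 library each with the authors' total and maximum signal, with normalization and control not given in the sources used here. Signal was used only as a percentile within a list. Other deposited files of windows, with their comparison not given in the sources used here, served as positions only, since their score column is 0 throughout.

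Gene positions came from RefSeq GRCh38.p14, which has no exons in the table used. Occupancy (overlap of at least 1 bp with the gene or 1 kb on either side) went gene by gene into Fisher's exact test over the genes whose total could reach p = 0.05, and covered share by an exact two-sided permutation test over 70 arrangements, with Benjamini-Hochberg adjustment over all genes of the comparison and calls at adjusted p under 0.05. In simulated data, 200 genes among 19970 were set without overlap between the arms, and both tests gave 100% of them an unadjusted p under 0.05. That result was fixed by how the genes were set. It checks the computation only, not the calls by adjusted p and not weaker changes. Groups came from titles. Replicate numbers equal the batch in the labels, so they pair the libraries, although deviations of same-numbered libraries correlated at only -0.53 to 0.48 over the comparisons. Of 190 library pairs 0 held identical lists. Depth is unknown. All 9 members are named in each comparison; list genes are named at p under 0.05, at most 10, and a count given by name after its values were seen is so marked. Members and lists were chosen with earlier results of these data known. Alternatives changed windows, overlap, list length, covered bases, region width, block, strata and libraries. Python 3.11.15, numpy 2.4.6, scipy 1.17.1 and pandas 2.3.3 were used.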

Additional observations from a re-analysis of the deposited data

Results flagged for a closer look

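Effects on covered share were compared between conditions for each member in 90 pairs, and 5 were opposite in both libraries of each group. None of these differences was tested, and with 2 libraries on each side some such cases arise by chance. At H3-3A, SMARCA1 cover with siOrc6 minus siGl3 was 33.4 and 19.6 points in NT cells and -1.08 and -9.87 in H2O2 cells, a difference of means of 31.9 points. The same H3-3A effect in H2O2 cells was 4.98 and 12.9 points for OGG1, so SMARCA1 stood -14.4 points from OGG1. At H2AZ1, the SMARCA1 effect of siOrc6 was 100 and 66.2 points in NT and -13.7 and -29.2 in H2O2 cells, 105 points apart. At H2AX, the effect of siOrc6 in NT cells was 100 and 78.2 points for SMARCA1 and -17.3 and -7.24 for OGG1, 101 points apart. At MACROH2A2, the OGG1 effect of siOrc6 was 12.1 and 37.6 points in NT and -11.7 and -14.3 in H2O2 cells, 37.9 points apart. The SMARCA1 cases in NT cells rest on siGl3 libraries in which H3-3A, H2AZ1 and H2AX had no region, and the siOrc6 SMARCA1 lists carry the resubmission mark.

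Files outside the comparisons also covered the members. An Orc6 list of the whole series, named for siGl3 NT cells, overlapped 9 of 9 members, with 43.6% of all genes, and held H3-3B at the 94.3 percentile and MACROH2A1 at the 31.2. The authors' deposited SMARCA1 windows named up overlapped 8 of 9 members for NT siOrc6 cells (all but H1-10; 34.0% of genes) and 8 of 9 for H2O2 siOrc6 cells (all but H2AZ1; 50.1% of genes). Windows named ns overlapped 4 members for H2O2 (H3-3B, H2AZ1, MACROH2A2 and CENPA; 44.5% of genes) and H1-10 for NT. The libraries behind those windows are unknown here.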

How the results depend on the processing

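Called members numbered 0 in each alternative run, except that 1 was called for OGG1 against SMARCA1 when occupancy was read 1 kb on either side of both gene ends. That member was MACROH2A1, with adjusted p = 0.0452. These zeros show no stability where a test could not pass: the exact tests of Orc6 with H2O2 cannot go below p = 0.333, and the covered-share test called 0 genes in each comparison as reported. Leaving out 1 library at a time gave 0 members throughout. With the replicate block the smallest p was 0.125 (0.5 for Orc6 alone), which cannot pass the threshold, and 0 members were called. Among 23 single-member differences that the text tests, 10 of 391 alternative values were opposite in sign, and of the other 85 differences 62 of 1409 were. For OGG1 with H2O2, regions of at most 10 kb gave a covered-share difference of -2.17 at H3-3A and -3.12 at MACROH2A2. For occupied share in siGl3 cells, lists held to 31.8 covered Mb gave OGG1 minus SMARCA1 of -50 points at H3-3A and -25 at H2AZ2 and H2AX, and Orc6 minus SMARCA1 of -50 points at H3-3A and H2AZ1 and -25 at H2AX. Orc6 minus SMARCA1 was also -25 at H2AX with lists of equal length and -25 at H2AZ2 with regions of at most 10 kb. Holding covered bases keeps fewer regions in lists whose strongest regions are broad. The count of all genes called moved more: for OGG1 with H2O2 it was 1565, 2627 with the stronger 50% of each list, 0 with lists of equal length or equal covered bases, 0 under the replicate block, 0 without any 1 H2O2 library and 2699 without siOrc6 NT replicate 2. From 0 it went to 1526 for SMARCA1 with H2O2 (stronger 50%), 1029 for SMARCA1 with siOrc6 (equal length), 1921, 1278 and 1141 for OGG1 against SMARCA1 (gene ends, equal length, equal bases), 531 for Orc6 against SMARCA1 (equal bases) and 1053 for Orc6 against OGG1 (equal length). The cause of these moves was not tested, beyond the fewer libraries or regions each holds. Region lists without read counts limit every value to presence and extent.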
